A study of Mus musculus with 6 samples.

Results

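The genes described here encode the subunits of the nucleosome remodelling and deacetylase complex, NuRD, other than the histone-binding proteins RBBP4 and RBBP7. They were chosen by name, as the 10 genes Chd4, Mta1, Mta2, Mta3, Hdac1, Hdac2, Mbd2, Mbd3, Gatad2a and Gatad2b, out of 55401 genes in the deposited tables. NuRD joins a remodelling module, in which CHD4 uses ATP to move nucleosomes, to a deacetylase module, in which HDAC1 and HDAC2 remove acetyl groups from histones. The MTA proteins are the scaffold that holds the deacetylases and RBBP4 or RBBP7, MBD2 and MBD3 are alternative subunits related to methyl-CpG binding proteins, and GATAD2A and GATAD2B connect the MBD subunit to CHD4. In mouse embryonic stem cells (mESCs) the complex is known for tuning the transcription of pluripotency genes and for allowing exit from self-renewal, and loss of MBD3 disturbs its assembly.

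Poly(A) RNA was sequenced from 3 groups of 2 libraries of 46C mESCs, a mouse line with a fluorescent reporter in the Sox1 gene. By the labels, the control cells stably expressed a biotin tag alone and the other groups biotin-tagged Rbbp4 or biotin-tagged Rbbp7. The study's methods describe making such lines from 46C cells that already carried a biotin ligase, BirA, delivered by lentivirus, with a second lentivirus for a Flag and biotin-acceptor (Avi) tag alone or joined to Rbbp4 or Rbbp7, so that the control would carry the ligase too. The infected cells were selected with a drug, with no cloning step described, and grown in serum medium with 3 µM Chir99021, 1 µM PD0325901 and 1000 U of leukemia inhibitory factor, and the labels do not say whether the 2 libraries of a group came from separate cultures, so that p-values measure only the spread between these libraries. Expression was deposited as TPM, a relative abundance of transcripts that corrects for their length and scales each library to the same total. The read depth of the libraries is therefore unknown.

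The overexpressed genes matched the labels. Rbbp4 had 146 and 147 TPM in the control libraries, 270.0 and 271 in the Rbbp4-overexpressing libraries and 144 and 143 in the Rbbp7-overexpressing libraries. Rbbp7 had 239 and 237 TPM in control, 208 and 217 with Rbbp4 and 725 and 748 with Rbbp7. Both values include RNA from the endogenous gene and from the construct, which these tables do not separate. Between 19011 and 19691 genes were above 0 in a library, and mitochondrial genes took 8.97% and 9.78% of TPM in control, 10.5% and 9.89% with Rbbp4 and 11.2% and 11.0% with Rbbp7. Both overexpressing groups were thus above both control libraries in mitochondrial share, and its part in the differences below was not tested. All 8 mESC markers were at or above 1 TPM in every library, and among them Pou5f1 (log2 difference 0.25) and Utf1 (0.46) were higher and Nanog (−0.23) lower with Rbbp4, while Utf1 (0.54) was higher with Rbbp7, at adjusted p-values of 0.033, 0.010, 0.039 and 0.031 from limma. Markers of other cell types summed to 0.97 to 3.29 TPM over 7 primitive endoderm genes, 12.2 to 16.2 over 6 trophoblast genes, 90.7 to 116 over 5 neural genes, nearly all of it Tubb3, and 4.66 to 11.8 over 7 fibroblast genes. Olig2, Lum and Postn were at 0 in all 6 libraries. Of these markers the test covered only those with a mean of at least 0.5 TPM, 1 primitive endoderm, 4 trophoblast, 2 neural and 2 fibroblast genes. Among them only Thy1 passed, at 4.13 and 5.02 TPM in control and 8.87 and 10.8 with Rbbp4 (log2 difference 0.96, adjusted p = 0.019). The part of Thy1 in the results below was not tested. The 2 control libraries differed more from each other than the libraries of the other groups did, with a median absolute log2 difference of 0.18 over all tested genes against 0.12 and 0.12. In control replicate 1, 9 of the 10 NuRD genes were lower than in replicate 2, as were 63.9% of all tested genes.

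RefSeq promoter sequences (GRCm38.p6) were matched for Chd4, Mta1, Mta2, Hdac2, Mbd3, Gatad2a and Gatad2b. The 250 bases upstream of the start are shown for Mta1 and Mbd3, to let the sequence at their starts be read beside their values. These were the NuRD genes that were higher with Rbbp4 than in control at an adjusted p of 0.05 (limma). Capitals mark matches on either strand to GGGCGG (a GC box) and to CCAAT, which do not overlap each other here. They are descriptions of the letters, not mapped binding sites.
Mta1, chr12:113098028-113098277, plus strand: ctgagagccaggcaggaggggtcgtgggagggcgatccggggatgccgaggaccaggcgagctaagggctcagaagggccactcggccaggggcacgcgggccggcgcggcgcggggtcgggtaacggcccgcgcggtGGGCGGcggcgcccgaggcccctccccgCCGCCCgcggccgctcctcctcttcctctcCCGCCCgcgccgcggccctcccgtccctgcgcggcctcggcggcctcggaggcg
Mbd3, chr10:80399532-80399781, minus strand: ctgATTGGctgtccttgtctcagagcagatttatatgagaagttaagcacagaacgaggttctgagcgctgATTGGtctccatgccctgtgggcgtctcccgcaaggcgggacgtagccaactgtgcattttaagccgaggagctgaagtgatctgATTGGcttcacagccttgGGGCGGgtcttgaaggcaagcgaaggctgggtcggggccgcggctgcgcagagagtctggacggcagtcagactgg
The Mta1 stretch held 39 CpG dinucleotides, more than 98.4% of the 32851 mouse promoters of the same length, whose median was 6, and had 80.8% G and C. It held 3 matches to GGGCGG and none to CCAAT. The Mbd3 stretch held 14 CpG, more than 70.6% of promoters, with 1 match to GGGCGG and 3 to CCAAT. A match to GGGCGG was present in 32.7% of all promoters and one to CCAAT in 33.8%. Of the other motifs searched on both strands, CCGGAA (an ETS core, in 12.0% of promoters) matched neither stretch, and TATAAA (in 12.4%) matched the Mbd3 stretch 1 time.

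The subunit families were each led by a single gene, or shared, to different degrees. In the control libraries the MBD subunit gene Mbd3 was the most abundant of the 10, at 252 and 233 TPM, and its paralogue Mbd2 was among the least, at 13.5 and 15.7 TPM. The GATA zinc finger subunit gene Gatad2a had 71.8 and 86.7 TPM against 11.6 and 14.6 for Gatad2b. Mbd3 and Gatad2a were thus the predominant paralogues, with 94.3% ± 0.88 (SD, n = 2) and 85.8% ± 0.36 of the TPM of their pairs. The deacetylase genes were closer to each other, Hdac1 at 190.3 and 199 TPM and Hdac2 at 119 and 131 TPM. The scaffold genes were about as close, with Mta3 at 98.0 and 106 TPM, Mta2 at 84.5 and 96.3 TPM and Mta1 at 59.4 and 69.4 TPM. Mta3 was 1.65 and 1.53 times Mta1 in the control libraries, and Hdac1 was 1.60 and 1.51 times Hdac2. The remodeller gene Chd4 had 141 and 166 TPM and made up 89.5% ± 0.28 of the TPM of the CHD3, CHD4 and CHD5 genes, whose products are alternative remodelling subunits.

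In order of mean control TPM the genes ran Mbd3, Hdac1, Chd4, Hdac2, Mta3, Mta2, Gatad2a, Mta1, Mbd2 and Gatad2b. The library ranges of neighbours in that order did not overlap except between Mta2 and Gatad2a and between Mbd2 and Gatad2b. With Rbbp4 the order changed in that Chd4 and Hdac1, whose ranges then overlapped, came level at means of 155 and 152 TPM, and Mta1 stood above Gatad2a. With Rbbp7, Mta2 stood above Mta3. All 10 genes passed the filter of a mean of 0.5 TPM, and over the 6 libraries their means lay above 55.1% (Gatad2b) to 96.0% (Mbd3) of the 14156 genes tested.

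**Figure D1:**
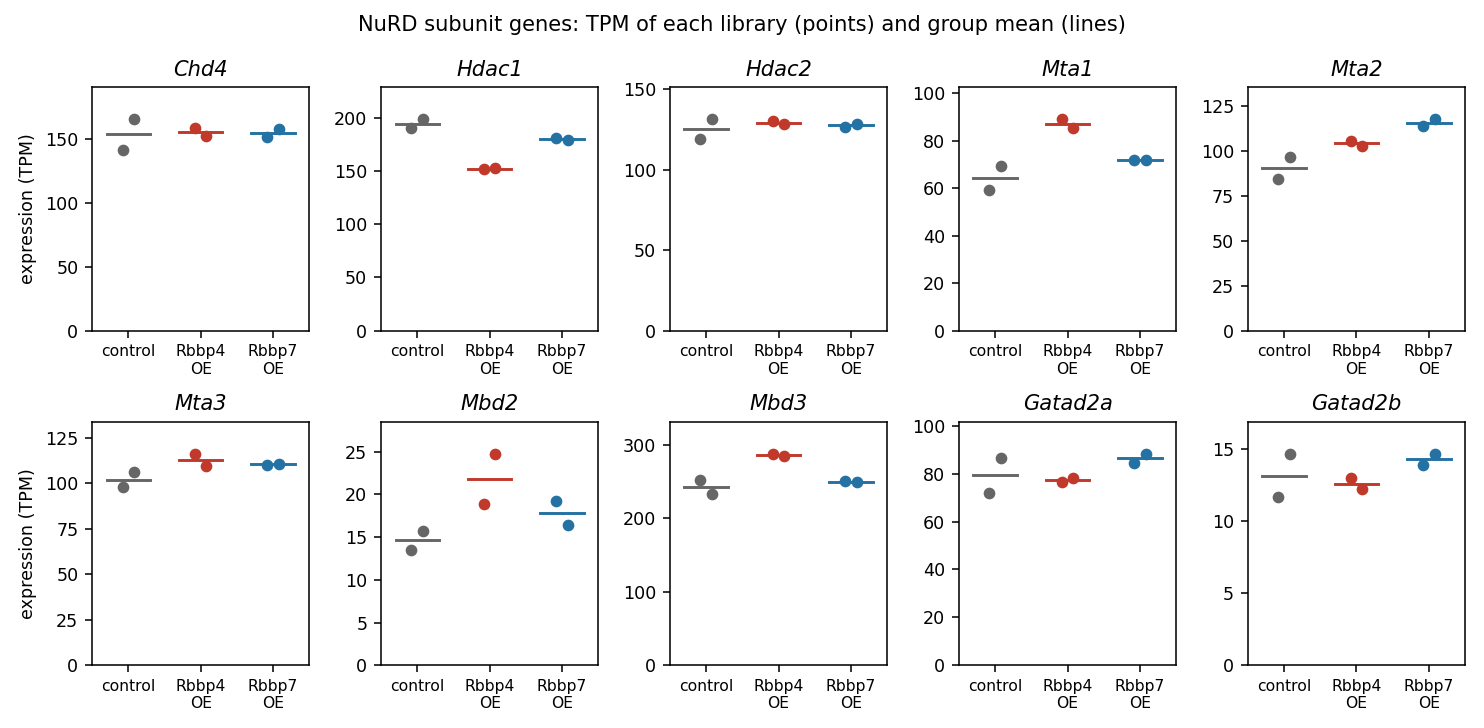
Expression in TPM (vertical axes, from 0) of the 10 NuRD subunit genes in each library of the control, Rbbp4 overexpression and Rbbp7 overexpression groups (OE). Points are libraries and horizontal lines group means (n = 2). Hdac1 in the Rbbp4 libraries, at 152 and 152 TPM, lay below the other 4 libraries, and Mta1, at 89.1 and 85.3 TPM, lay above them.

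The comparison of Rbbp4 overexpression with control asked whether the RNA of the other NuRD subunits moved when Rbbp4 RNA was raised. Hdac1 fell by 0.35 on the log2 scale, and Mta1 and Mbd3 rose by 0.44 and 0.24. Thus 3 of the 10 genes passed an adjusted p of 0.05 (limma on log2(TPM + 1), Benjamini-Hochberg over all genes), 2 of them higher and 1 lower, where 11.4% of all tested genes passed, 3.29% higher and 8.07% lower. None passed the thresholds that the study used, an adjusted p under 0.01 with a change over 2-fold, which 0.516% of all genes passed. The overexpressed Rbbp4 did not pass them either, at a log2 difference of 0.88 (adjusted p = 0.0017), because its change was under 2-fold. The median log2 difference was 0.10 over the 10 genes and −0.08 over all genes. In RNA from a whole culture, fewer cells of a type and less RNA per cell cannot be told apart.

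Hdac1, a catalytic subunit, lies on chromosome 4 at 129516104 to 129542713 (GRCm38, minus strand), 180734 bases from Rbbp4. It had 190.3 and 199 TPM in control and 152 and 152 TPM with Rbbp4. Both Rbbp4 libraries were below both control libraries, with a log2 difference of −0.35 (SE 0.050, 95% interval −0.47 to −0.23, adjusted p = 0.015). Its paralogue Hdac2, with which it shares the catalytic role, had 119 and 131 TPM in control and 130.0 and 128 TPM with Rbbp4. The Hdac2 groups overlapped, and the interval of the log2 difference ran from −0.11 to 0.21 (adjusted p = 0.67). Transcripts of 2 other annotated genes match Hdac1 at 95% identity or more over at least 100 bases, the longest over 1450 bases at 96.3%, so reads could be divided between them. The gene with that longest match was at 0.07 to 0.38 TPM in all libraries.

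The scaffold gene Mta1, on chromosome 12 at 113098278 to 113137206 (plus strand), had 59.4 and 69.4 TPM in control and 89.1 and 85.3 TPM with Rbbp4. The groups did not overlap, and the log2 difference was 0.44 (SE 0.087, adjusted p = 0.032), 1.35-fold on the log2(TPM + 1) scale. Mta2 had 84.5 and 96.3 TPM in control and 105 and 103 TPM with Rbbp4, also without overlap, but the difference of 0.20 did not pass (adjusted p = 0.14). Mta3, at 98.0 and 106 against 116 and 109 TPM, did not pass either (0.14, adjusted p = 0.21). The summed TPM of the 3 scaffold genes was 257 ± 21.2 in control and 304 ± 9.50 with Rbbp4 (SD, n = 2 each), and the libraries did not overlap.

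Mbd3, on chromosome 10 at 80392539 to 80399550 (minus strand), had 252 and 233 TPM in control and 288 and 284 TPM with Rbbp4. This was a log2 difference of 0.24 (SE 0.054, adjusted p = 0.045), with both Rbbp4 libraries above both controls. Mbd2, whose product binds methylated DNA, had 13.5 and 15.7 TPM in control and 18.9 and 24.8 TPM with Rbbp4. The libraries of Mbd2 were apart, but the 2 Rbbp4 values differed by 31.0% and the difference of 0.54 did not pass (adjusted p = 0.081). The remaining genes had overlapping groups. Chd4 was at 141 and 166 against 159 and 152 TPM, Gatad2a at 71.8 and 86.7 against 76.7 and 78.2 TPM, and Gatad2b at 11.6 and 14.6 against 12.9 and 12.2 TPM. Their log2 differences were 0.02, −0.03 and −0.05, with adjusted p-values of 0.89, 0.89 and 0.84. For Gatad2b an opposite-strand gene shares up to 247 exonic bases, but it did not exceed 0.06 TPM.

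At an unadjusted p of 0.05, 5 of the 10 genes passed in limma, which were the 3 above with Mta2 and Mbd2, against 29.6% of all genes. In all, 5 genes were higher and 1 lower with no overlap between the 2 groups, against 20.8% and 37.1% of all genes, or 57.9% together. Most fits with 1 library left out, which leave 1 library in a group, gave fewer calls, for these genes and over all genes alike. That held also without an Rbbp7 library, which does not enter these differences. A lost call therefore does not by itself show dependence on a particular library. With 1 library left out the differences stayed between −0.38 and −0.32 for Hdac1, 0.32 and 0.55 for Mta1, and 0.18 and 0.30 for Mbd3. Across 14142 genes the log2 difference also moved with the G and C content (Spearman's rho 0.257) and the length (−0.244) of the longest transcript. These are descriptions across genes, which are not replicates. Mbd3 (62.9%) and Mta1 (57.4%) had the highest G and C content of the 10 genes and Hdac1 had 50.0%. Mbd3 also had the shortest such transcript of the 10 genes, at 1662 bases. After a correction for G and C content and length, the Mbd3 difference was 0.05 (adjusted p = 0.52), that of Mta1 0.31 (adjusted p = 0.11) and that of Hdac1 −0.35 (adjusted p = 0.020). Over all genes 466 were higher and 1143 lower at an adjusted p of 0.05, and 716 and 712 after median-of-ratios scaling. Under that scaling Hdac1, at −0.24 (adjusted p = 0.037), Mta1, at 0.54, and Mbd3, at 0.35, kept their directions.

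Rbbp7 overexpression was compared with the same 2 control libraries. No NuRD gene passed an adjusted p of 0.05 (0 of 10), where 0.487% of all genes passed, 0.198% higher and 0.29% lower, and none passed the study's thresholds, which 0.0353% of all genes passed. At an unadjusted p of 0.05, 1 of the 10 passed in limma, against 15.4% of all genes. This was the scaffold gene Mta2, on chromosome 19 at 8941875 to 8952303 (plus strand), with 84.5 and 96.3 TPM in control and 113 and 118 TPM with Rbbp7. Its groups did not overlap and the log2 difference was 0.35 (95% interval 0.17 to 0.54, adjusted p = 0.14).

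The other deacetylase, scaffold and MBD genes differed by less. Hdac1 had 181 and 179 TPM with Rbbp7, below both control libraries, a log2 difference of −0.11 (95% interval −0.23 to 0.01, adjusted p = 0.36). Mta1, at 72.0 and 71.8 TPM, was above both controls by 0.16 (adjusted p = 0.44), and Mbd3, at 250.3 and 249 TPM, overlapped them (0.04, adjusted p = 0.77). The Mbd3 interval of −0.09 to 0.18 lies below the 0.24 measured with Rbbp4, but overlaps the interval of that estimate, 0.11 to 0.37. Both estimates use the same control libraries. Mbd2 was at 19.2 and 16.5 TPM and Mta3 at 110 and 111 TPM, both above the control libraries, with adjusted p-values of 0.48 and 0.48. Chd4 (151 and 158 TPM), Hdac2 (127 and 129 TPM), Gatad2a (84.3 and 88.4 TPM) and Gatad2b (13.9 and 14.7 TPM) overlapped the controls. In all, 4 genes were higher and 1 lower without overlap, against 21.2% and 23.4% of all genes, or 44.5% together, and the median log2 difference was 0.12 over the 10 genes and −0.0037 over all genes.

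**Figure D2:**
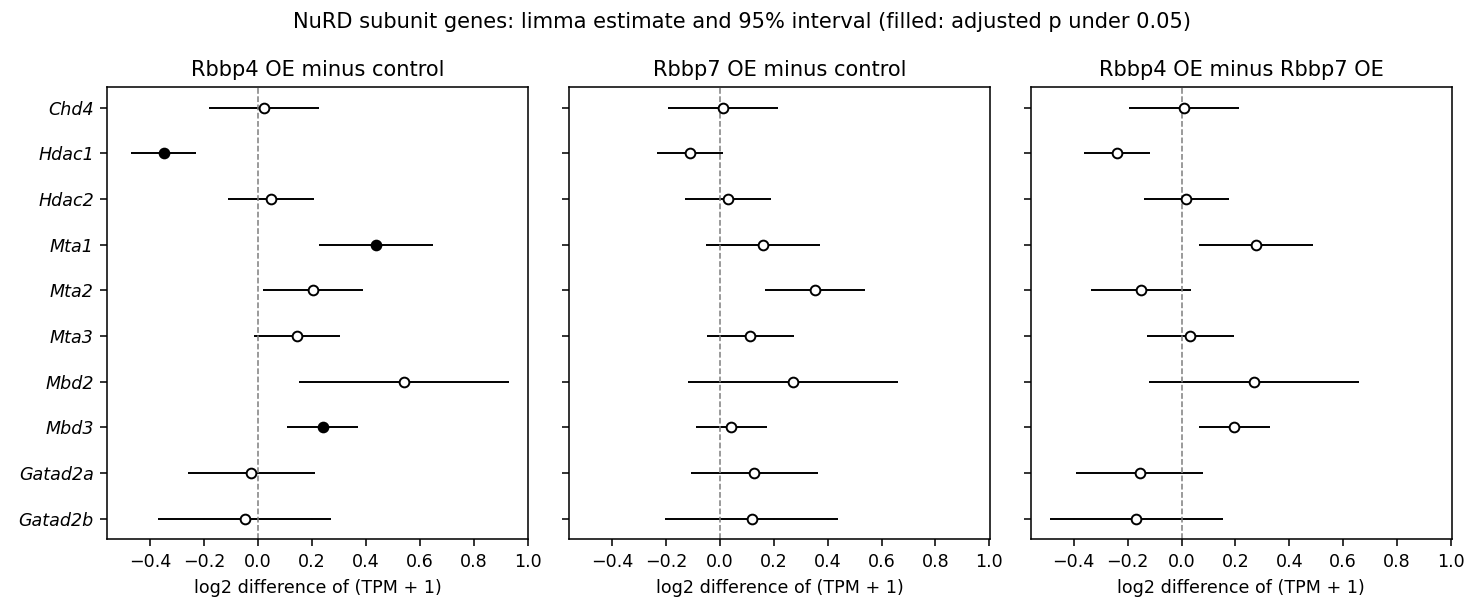
Log2 difference of TPM + 1 (horizontal axes) for each NuRD subunit gene in the 3 comparisons, as the limma estimate (points) with its 95% interval (lines), from 2 libraries per group. Filled points passed an adjusted p of 0.05. They are Hdac1, Mta1 and Mbd3 in the comparison of Rbbp4 overexpression (OE) with control, and there are none in the other panels.

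The Rbbp4 and Rbbp7 libraries were then set against each other, which tests whether their differences from control were unequal without using the control libraries in the estimate. No NuRD gene passed an adjusted p of 0.05 (0 of 10, against 0.304% of all genes, 0.177% higher and 0.127% lower) and none passed the study's thresholds (0.0494% of all genes). At an unadjusted p of 0.05, 3 passed in limma, against 19.0% of all genes. Hdac1 was lower with Rbbp4 by 0.24 on the log2 scale (95% interval −0.36 to −0.12, adjusted p = 0.12). Mbd3 was 0.20 higher (0.06 to 0.33, adjusted p = 0.16) and Mta1 0.28 higher (0.06 to 0.49, adjusted p = 0.19). A different response of these genes to Rbbp4 and to Rbbp7 was therefore not established after adjustment. Mta2 was the scaffold gene with the opposite order, at 105 and 103 TPM with Rbbp4 and 113 and 118 with Rbbp7 (−0.15, adjusted p = 0.34). In this comparison 2 genes were higher and 4 lower without overlap, against 16.1% and 38.6% of all genes, or 54.7% together.

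The share of each paralogue in its family uses only ratios within a library, so it does not depend on how the libraries are scaled to each other. Hdac1 held 60.9% ± 0.96 of the Hdac1 and Hdac2 TPM in control, 54.1% ± 0.25 with Rbbp4 and 58.5% ± 0.40 with Rbbp7 (SD, n = 2 each). The libraries of the 3 groups did not overlap, running from 60.2% to 61.6%, 53.9% to 54.3% and 58.2% to 58.8%. Mta1 held 25.0% ± 0.69 of the scaffold TPM in control, 28.7% with Rbbp4 (28.7% in both libraries) and 24.1% ± 0.33 with Rbbp7, with no overlap. Mta2 held 35.2% ± 0.34, 34.2% ± 0.45 and 38.8% ± 0.52, again without overlap, and so took the largest share of the scaffold TPM with Rbbp7, where Mta3 did in the other groups. The Gatad2a share was 85.8% ± 0.36, 86.0% ± 0.64 and 85.8% ± 0.076 and overlapped between the groups. The Mbd3 share, 94.3% ± 0.88, 92.9% ± 1.31 and 93.3% ± 0.66, overlapped too. With 2 libraries against 2, an exact two-sided permutation test cannot give a p below 0.333, so these shares are descriptions.

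Ratios between families within a library are also given as descriptions, with no test. The summed TPM of Hdac1 and Hdac2 was 1.28 and 1.21 times that of Mta1, Mta2 and Mta3 in the control libraries, 0.908 and 0.944 times with Rbbp4 and 1.04 and 1.03 times with Rbbp7. The libraries of the 3 groups did not overlap in this ratio, although with Rbbp7 no deacetylase or scaffold gene passed an adjusted p of 0.05 against control. Chd4 per scaffold TPM was 0.585 and 0.609 in control, 0.510 and 0.513 with Rbbp4 and 0.512 and 0.526 with Rbbp7, so that both overexpressing groups lay below control and overlapped each other. The 10 genes summed to 1080 ± 53.7 TPM in control, 1139 ± 12.6 with Rbbp4 and 1128 ± 9.16 with Rbbp7. Rbbp4 and Rbbp7 together summed to 384 ± 0.30 TPM, 483 ± 7.87 and 880 ± 15.6, so the histone-binding genes, constructs included, exceeded the scaffold by 1.41 to 1.59 times in control and 2.94 to 2.97 times with Rbbp7. With Rbbp4 that ratio was 1.54 and 1.64, which overlapped control.

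**Figure D3:**
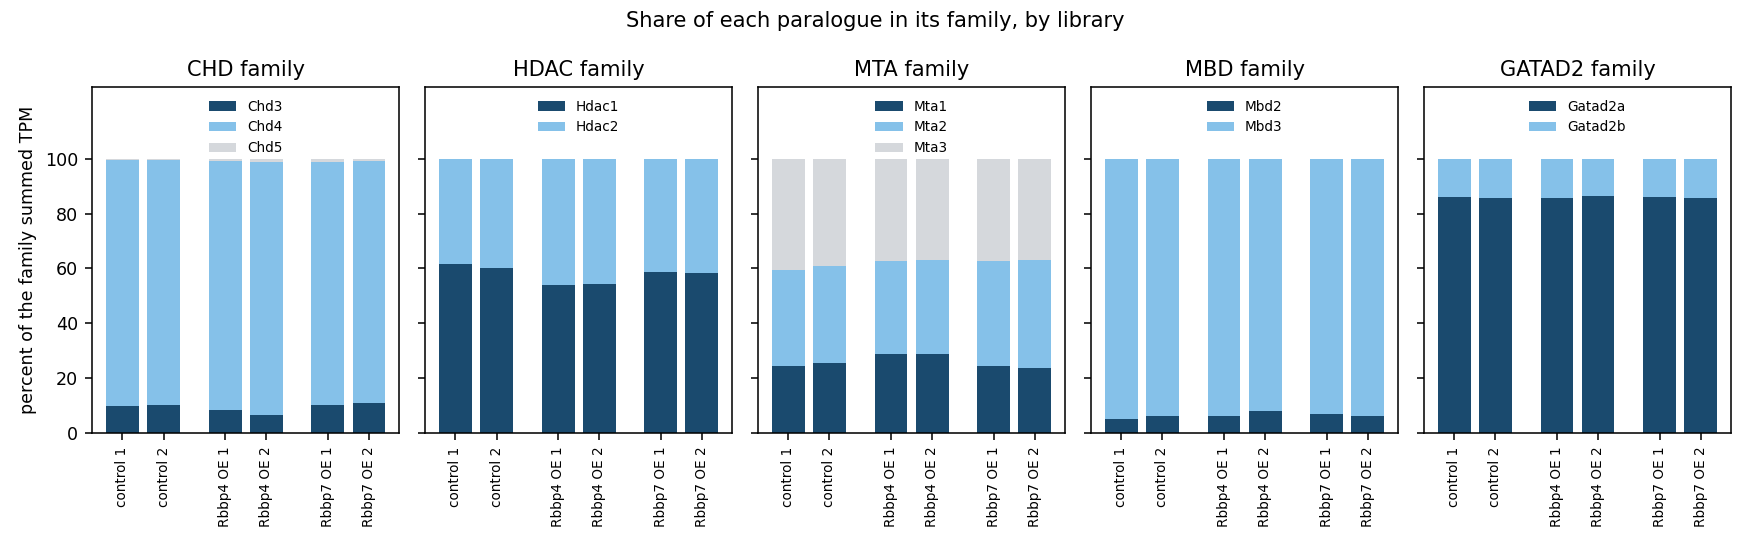
Share of each paralogue in the summed TPM of its family (stacked bars, percent, adding to 100) in each of the 6 libraries. The Hdac1 share averaged 60.9% in control and 54.1% in the Rbbp4 overexpression (OE) libraries, and the GATAD2 pair stayed between 85.6% and 86.5% Gatad2a.

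Among 20 genes of proteins that associate with NuRD or can replace a subunit, 3 passed an adjusted p of 0.05 in limma with Rbbp4 against control, 2 higher and 1 lower, where 11.4% of all tested genes passed, 3.29% higher and 8.07% lower. The partner count was close to that background. Zfp219, a zinc finger protein, had 49.6 and 51.2 TPM in control, 73.6 and 76.9 with Rbbp4 and 65.9 and 72.2 with Rbbp7. Both overexpressing groups were above control, by 0.57 (adjusted p = 0.012) and 0.44 (adjusted p = 0.081) on the log2 scale. Zmynd8, a chromatin reader with a bromodomain, was at 41.7 and 41.5 TPM in control, 53.9 and 53.8 with Rbbp4 and 55.1 and 58.5 with Rbbp7. Its libraries were above control in both overexpressing groups too, with log2 differences of 0.37 (adjusted p = 0.027) and 0.44 (adjusted p = 0.071). Sall1, a zinc finger transcription factor that recruits NuRD, had 40.4 and 55.8 TPM in control, 27.0 and 28.8 with Rbbp4 and 39.8 and 41.8 with Rbbp7. It was lower with Rbbp4 by 0.75 (adjusted p = 0.033), and the control libraries were far apart, one of them within the Rbbp7 range.

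The alternative remodellers were low. Chd3 had 15.4 and 18.7 TPM in control, 15.0 and 11.0 with Rbbp4 and 17.6 and 19.7 with Rbbp7, and Chd5, at 0.85 to 1.87 TPM, was near 1 TPM throughout. Neither passed an adjusted p of 0.05 in any comparison. No partner gene passed with Rbbp7 against control or between the 2 overexpressing groups (0 of 20 each). At an unadjusted p of 0.05 in limma, 3 passed with Rbbp7 against control, namely Zfp219, Zmynd8 and Zfp423, against 15.4% of all genes, and 5 between the 2 overexpressing groups, Chd3, Sall1, Zfpm1, Zfp512b and Wdr5, against 19.0%. With Rbbp4 against control 6 did, against 29.6% of all genes, and the median log2 difference was −0.05 over the 20 genes and −0.08 over all genes. These counts were near the background. As with the NuRD genes, most fits with 1 library left out kept fewer of the 3 adjusted calls with Rbbp4.

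Genes known as targets that NuRD restrains in mESCs, Klf4, Klf5, Tbx3, Zfp42 and Ppp2r2c, gave no adjusted call in any comparison (0 of 5 each). At an unadjusted p of 0.05 in limma, 3 passed with Rbbp4 against control (Klf4, Klf5 and Tbx3), 2 with Rbbp7 against control (Tbx3 and Zfp42) and 4 between the overexpressing groups (Klf4, Klf5, Zfp42 and Ppp2r2c), against 29.6%, 15.4% and 19.0% of all genes. Klf4, a transcription factor of naive pluripotency, had 178 and 239 TPM in control, 160 and 141 with Rbbp4 and 194 and 218 with Rbbp7. Its log2 difference with Rbbp4 was −0.45 (adjusted p = 0.097). Klf5 had 84.7 and 105 TPM in control, 76.0 and 69.7 with Rbbp4 and 109 and 108 with Rbbp7, so the Rbbp4 libraries were below and the Rbbp7 libraries above control (−0.37, adjusted p = 0.080, and 0.20, adjusted p = 0.45). Tbx3, a T-box factor, went the other way with Rbbp4, at 137 and 149 TPM in control, 180.2 and 168 with Rbbp4 and 177 and 196 with Rbbp7. The Tbx3 differences were 0.28 (adjusted p = 0.071) and 0.38 (adjusted p = 0.12). Zfp42 lay between 422 and 479 TPM and Ppp2r2c between 7.65 and 11.5 TPM in all libraries. All 5 genes had a negative log2 difference between Rbbp4 and Rbbp7, from −0.56 (Klf5) to −0.10 (Tbx3), with a median of −0.36 against −0.08 over all genes. Negative differences prevailed over all genes too, since the −0.0087 of the partner gene Cdk2ap1 was at or above 62.1% of them.

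**Figure D4:**
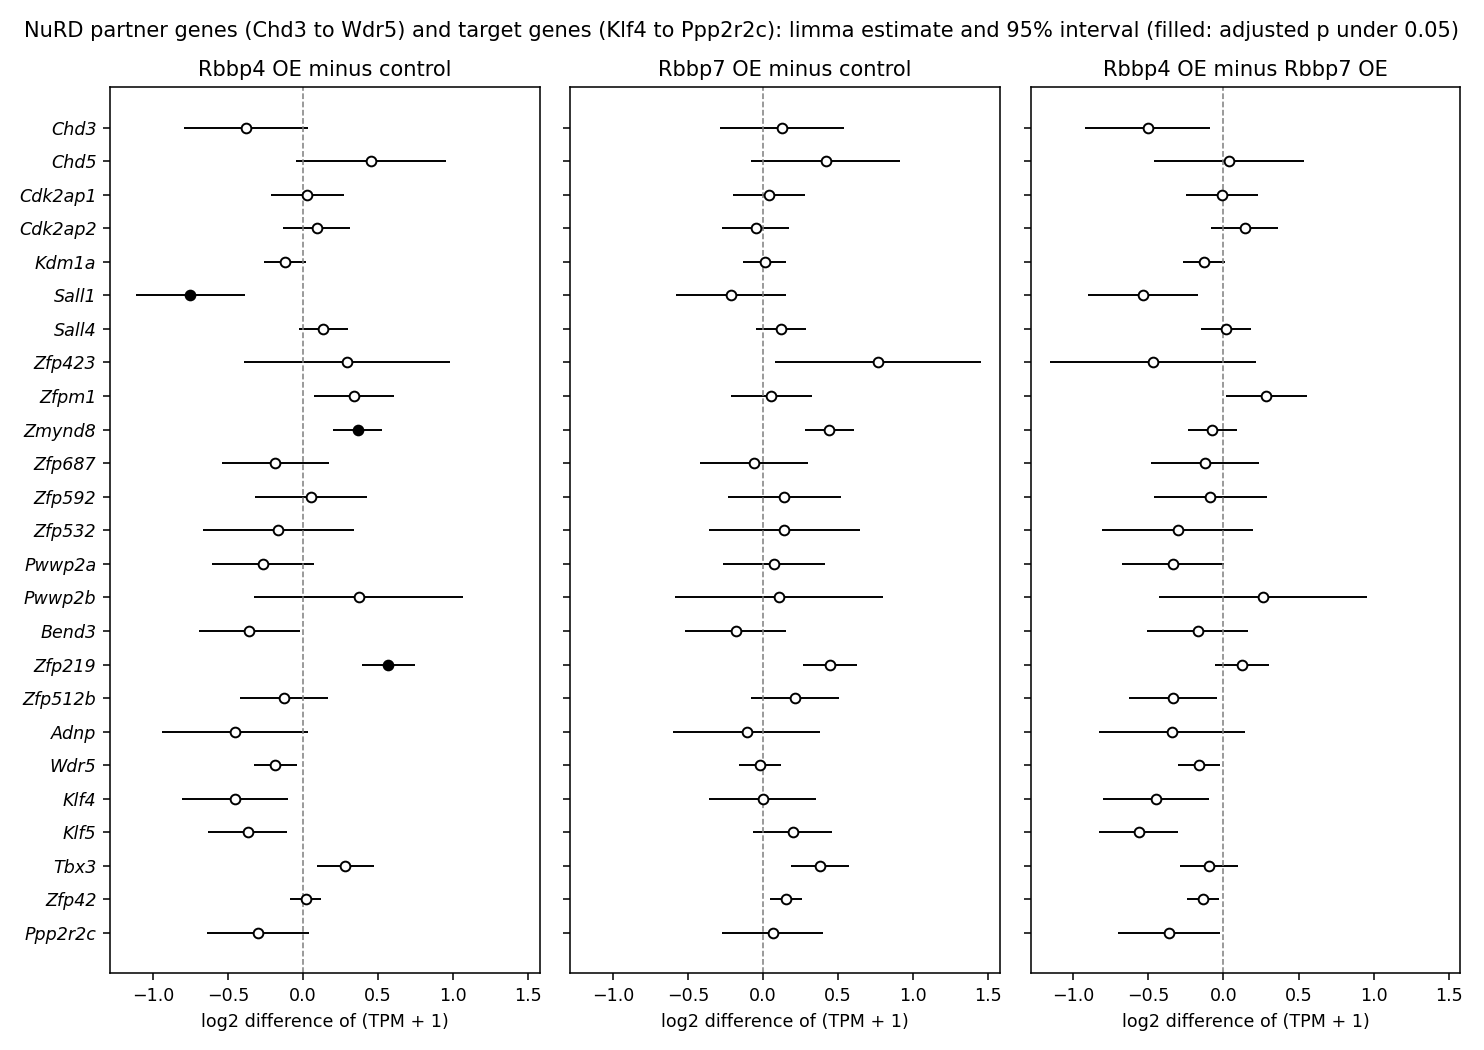
Log2 difference of TPM + 1 (horizontal axes) for 20 NuRD partner genes (Chd3 to Wdr5) and 5 target genes (Klf4 to Ppp2r2c) in the 3 comparisons, as the limma estimate with its 95% interval. OE, overexpression. Filled points, which are Sall1, Zmynd8 and Zfp219 with Rbbp4 against control, passed an adjusted p of 0.05.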

How the data were processed

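Bulk RNA-seq of 6 libraries (3 groups of 2) was analysed from the TPM tables that the authors deposited, 1 per library. The authors trimmed reads with Trim_galore, aligned them to mm10 (GENCODE M25) with STAR and estimated TPM per gene with RSEM. TPM keep no read depth, so the count test of the study (DESeq2) was not applied, and counting error is not known. Gene names and positions were taken from GENCODE M21 (GRCm38), in which 55141 of 55401 gene identifiers matched. Values were tested as log2(TPM + 1) with limma 3.58.1 (R 4.3.3), with a mean-variance trend, in 1 fit of all 3 groups (3 residual degrees of freedom) over the 14156 genes with a mean of at least 0.5 TPM, and p-values were Benjamini-Hochberg adjusted over those genes. Fold changes on this scale understate those of low genes. The fit was tested on simulated data first. Exon overlaps came from the annotation, and transcript copies from blastn 2.17.0. All 10 members and the called or listed partner and target genes are named. The members and all gene lists were chosen with earlier results of these data known. Alternatives tried were other pseudocounts, filters, scalings, a replicate block, a fit of 2 groups only, a robust trend, protein-coding genes only, a correction for G and C content and length, and leaving out each library.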

Additional observations from a re-analysis of the deposited data

Results flagged for a closer look

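No NuRD subunit gene had all its Rbbp4 libraries on one side of both controls and all its Rbbp7 libraries on the other, and none passed the direct test between the overexpressing groups. Gatad2a and Gatad2b had estimates of opposite sign, −0.03 and −0.05 with Rbbp4 and 0.13 and 0.12 with Rbbp7, but their libraries overlapped control. Among the listed partner and target genes, all Zfp512b and Klf5 libraries lay below control with Rbbp4 and above it with Rbbp7. The log2 difference between the 2 overexpressing groups was −0.34 for Zfp512b and −0.56 for Klf5, and in the direct test of that difference (limma) neither passed, at adjusted p-values of 0.22 and 0.11. The overexpressed genes differed between the groups that carry their constructs, Rbbp4 by 0.91 (adjusted p = 0.0019) and Rbbp7 by −1.79 (adjusted p = 8.31e-05). Groups of 2 libraries were too small to look for single outlying libraries.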

How the results depend on the processing

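With Rbbp4 against control, 3 NuRD genes were called, where 1609 of 14156 tested genes were. The NuRD count became 1 with no expression filter (709 of 24675 over all genes) and 1 with the replicate number as a block (900 of 14156). It was 1 after the G and C content and length correction (1444 of 14142) and 0 in a fit of those 2 groups only (158 of 14156). Hdac1 was the 1 gene left in the first 3 of these. The labels do not say whether same-numbered libraries were paired. Their deviations correlated at −0.03, 0.03 and −0.03, so no shift shared by number was seen over all genes. The block, which leaves fewer residual degrees of freedom, took the genes called over all tested genes from 1609 to 900. The partner genes called with Rbbp4 went from 3 to 0 in the 2-group fit and ranged from 0 to 4 when 1 library was left out, with Adnp added without control replicate 1. The target genes called with Rbbp4 went from 0 to 2 (Klf5 and Tbx3) with a mean of at least 5 TPM, where 2039 of 9035 genes were called. They went to 1 (Tbx3) under median-of-ratios scaling (1428 of 14156) and quantile normalization (1498 of 14156). The same held for protein-coding genes only (1970 of 12392) and the G and C content and length correction (1444 of 14142). With the filter of 5 TPM 2 partner genes (Zmynd8 and Zfp219) were also called with Rbbp7 against control, where 137 of 9035 genes were. The causes of these changes were not tested. Apart from the fits with 1 library left out, all other counts stayed within 1.5 times their value. The paralogue shares moved by less than 1 SD when a library was left out. With 2 libraries per group this is always so, and it is therefore no check of the shares.

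The signs of Gatad2a and Gatad2b with Rbbp4 against control turned positive under median-of-ratios scaling (0.080 and 0.051), quantile normalization (0.058 and 0.068) and the G and C correction (0.015 and 0.13), and that of Mbd3 with Rbbp7 against control turned negative under the last (−0.060). When 1 library was left out, signs also changed with Rbbp4 against control for Chd4 (−0.090 to 0.14), Hdac2 (−0.025 to 0.12), Gatad2a (−0.16 to 0.11) and Gatad2b (−0.20 to 0.10). With Rbbp7 against control they changed for Chd4 (−0.10 to 0.13), Hdac2 (−0.042 to 0.10), Gatad2a (−0.0057 to 0.26), Gatad2b (−0.036 to 0.27) and Mbd3 (−0.014 to 0.10), and between the overexpressing groups for Chd4 (−0.022 to 0.041) and Mta3 (−0.012 to 0.075). None of these differences was a call. Mta2 became a call with Rbbp4 under median-of-ratios scaling (0.31, adjusted p = 0.035), and Mbd2 with a mean of at least 5 TPM (0.54, adjusted p = 0.050) and under quantile normalization (0.66, adjusted p = 0.042).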
